A study of Fagopyrum tataricum with 9 samples.

Results

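The genes that took the largest portions of the seed transcriptome of Tartary buckwheat, apart from 5 named 11S globulin genes, were followed through 3 stages of seed filling. The counts of each gene were divided by the total of their library and averaged over the 3 replicates of a stage, and a gene was taken when this mean share was among the 50 largest of at least 1 stage. The 5 named 11S globulin genes and the assembled genes without an annotated id were left out. The rule gave 73 members out of 33940 genes. Because the shares chose the members, their levels and their stage differences are given below as a description.

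Seeds of the cultivar XIQIAO NO.2 were sampled at 13 days post anthesis (DPA, green fruit stage), 19 DPA (discoloration stage) and 25 DPA (initial maturity stage), with 3 replicate libraries at each stage. All plants were field grown and of 1 cultivar, and no treatment is described. Each replicate is described as 1 of 3 plants from which all stages were taken, but the sources do not say that a replicate number marks a plant. Whole seeds were extracted, so fewer cells of a type and less RNA per cell cannot be told apart in any of these values.

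During seed filling, the embryo and endosperm of a dicot seed divert much of their transcription to a few gene families whose products are stored for the seedling, such as globulins and albumins. Towards maturity, transcripts for oil body proteins and for proteins of the desiccating seed often join them, while transcripts of dividing and expanding tissue become a smaller part of the pool. The 11S globulins, the legumin type of storage protein, are a major protein of buckwheat grain. Transcripts of this kind are often encoded by families of near-identical copies. Of the 73 members, only FtPinG0000464100.01 carries a function in the sources used here, so the other members are described by id, length, level and course.

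The libraries held 22002318 to 25811462 counts. The label of the tissue was checked on the 5 named 11S globulin genes, of which 4 were among the 8 most abundant genes at every stage. Each of the 657 member values rested on at least 45 counts, and 622 of them on at least 1000. The lowest value, FtPinG0004980500.01 in 13 DPA replicate 3, was 0.000205% with a 95% Wilson interval of 0.000153 to 0.000274%. Over all member values, the median of this interval's width to either side was 1.0% of the share, and these intervals cover counting error only. The spread between replicates was therefore the larger error for most values. 13 DPA replicates 2 and 3 lay at opposite ends of their stage. Replicate 2 had the highest share of the stage for 52 of the 73 members, and replicate 3 had the lowest for 56. Among the 50 largest shares of each library, 40, 44 and 28 were members in 13 DPA replicates 1, 2 and 3. Sums of shares at 13 DPA that moved by over 1.5 times without replicate 2 are also given without it. Leaving out replicate 3 would raise any of these sums in which it was the lowest library.

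The members held 13.6 ± 5.53% of the counts at 13 DPA, 30.1 ± 4.02% at 19 DPA and 35.4 ± 2.40% at 25 DPA (SD, n = 3 each). In replicates 1, 2 and 3 their summed share was 12.8, 19.5 and 8.49% (13 DPA), 28.7, 34.6 and 27.0% (19 DPA), and 33.7, 34.3 and 38.1% (25 DPA). The libraries of 19 and 25 DPA all lay above those of 13 DPA, while the ranges of 25 and 19 DPA overlapped through 19 DPA replicate 2. Without 13 DPA replicate 2, the mean at 13 DPA was 10.7%. It was 16.1% without replicate 3 and 14.0% without replicate 1. The 5 named 11S globulin genes held 5.86 ± 3.72% at 13 DPA, 19.0 ± 2.42% at 19 DPA and 16.3 ± 0.914% at 25 DPA, and the mean at 13 DPA was 3.80% without replicate 2. All remaining genes held 80.6 ± 9.24%, 50.9 ± 6.43% and 48.4 ± 2.01% at 13, 19 and 25 DPA. Shares of one library sum to a fixed total, so a larger portion for the members leaves a smaller one for all other genes together. Over all 30221 genes with a count, 48.0% were lower in share at 19 DPA than at 13 DPA without overlap, and 4.03% were higher. From 13 to 25 DPA these portions were 56.3% and 7.63%, and from 19 to 25 DPA 28.1% and 13.0%. A fall in share without overlap was therefore common among all genes.

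**Figure D1:**
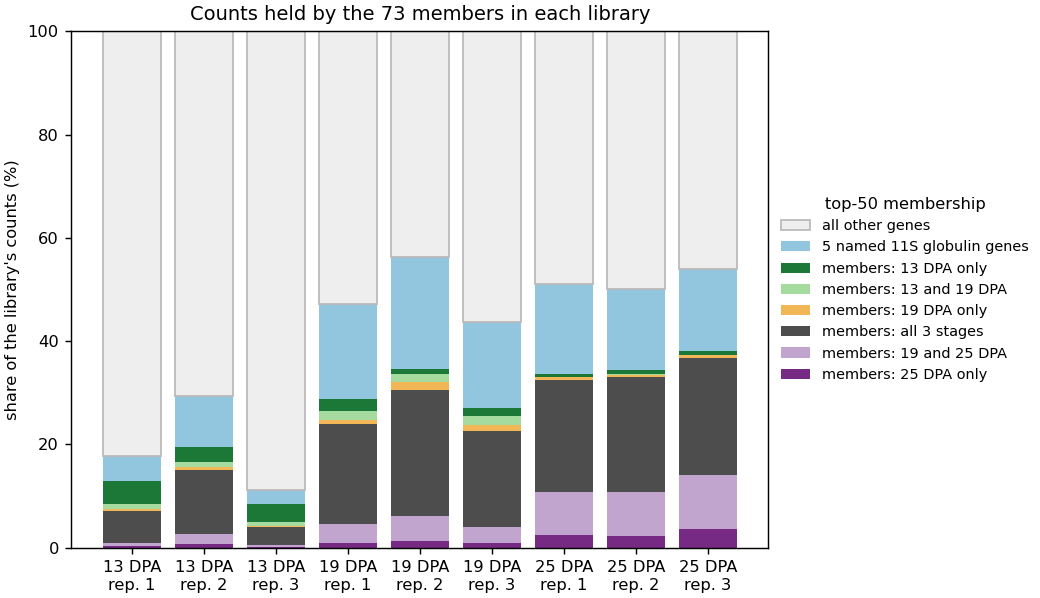
Portion of each library's counts (vertical axis, percent) held by the members, split by the stages at which they were among the 50 most abundant genes, by the 5 named 11S globulin genes and by all other genes; each bar is 1 library. Libraries of 13 DPA had 8.49 to 19.5% in members and those of 25 DPA 33.7 to 38.1%, and the members listed at all 3 stages held more than any other group of members in every library.

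The counts became concentrated in fewer members. Within each library, the 10 largest members held 47.7 ± 3.43% of the members' counts at 13 DPA, 55.4 ± 0.906% at 19 DPA and 64.0 ± 0.638% at 25 DPA. Ordered by mean share, 13 members reached 50% of the members' counts at 13 DPA, 8 at 19 DPA and 6 at 25 DPA. The largest member was a different gene at each stage, namely FtPinG0004859600.01 at 13 DPA with 1.27 ± 0.569%, FtPinG0002626600.01 at 19 DPA with 3.32 ± 0.773% and FtPinG0004979700.01 at 25 DPA with 4.09 ± 1.17%. Their ranges overlapped with those of the next members at each stage, so the order of neighbours was within the replicate spread.

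FtPinG0004979700.01, a gene of 418 bases, had the widest course among the largest members. In replicates 1, 2 and 3 its share was 0.0848, 0.243 and 0.00247% (13 DPA), 0.641, 0.811 and 0.566% (19 DPA), and 3.32, 3.51 and 5.44% (25 DPA). The 3 stages did not overlap, and its rank among all genes was 53 (13 DPA), 14 (19 DPA) and 2 (25 DPA). FtPinG0004981100.01 had 0.220, 0.491 and 0.0280% (13 DPA), 1.36, 1.38 and 1.15% (19 DPA), and 2.16, 3.06 and 3.43% (25 DPA). Its stages did not overlap either, and every stage mean was higher than the one before it. FtPinG0004980000.01 took 0.0874, 0.359 and 0.0114% (13 DPA), 0.664, 1.04 and 0.540% (19 DPA), and 2.25, 1.83 and 2.57% (25 DPA), again without overlap between stages. These 3 genes have close ids, and they are taken up again with the runs of close ids.

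FtPinG0001724500.01 was among the 10 largest members at all 3 stages, with 0.780, 1.52 and 0.427% (13 DPA), 2.92, 2.82 and 2.88% (19 DPA), and 3.17, 5.31 and 3.35% (25 DPA). Its 19 DPA libraries were the closest set of any member listed at that stage, with a coefficient of variation of 1.81%, and its stages did not overlap. FtPinG0002626600.01 reached a plateau, with 0.797, 1.93 and 0.355% (13 DPA), 3.10, 4.18 and 2.68% (19 DPA), and 3.95, 2.89 and 3.15% (25 DPA). Its 13 DPA libraries lay below all others, and its 25 and 19 DPA libraries overlapped. FtPinG0004859600.01 held 1.05, 1.91 and 0.841% (13 DPA), 2.74, 2.08 and 3.12% (19 DPA), and 2.65, 1.85 and 2.39% (25 DPA). Only 13 DPA replicate 2 reached the range of 25 DPA, and no 13 DPA library reached that of 19 DPA.

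Other large members were highest at 19 DPA. FtPinG0008672700.01 had 0.893, 1.73 and 0.464% (13 DPA), 2.25, 2.96 and 2.13% (19 DPA), and 1.57, 1.22 and 1.34% (25 DPA), so that the 19 DPA libraries lay above all others and the 25 DPA libraries fell inside the range of 13 DPA. FtPinG0004112300.01 had 0.293, 0.489 and 0.134% (13 DPA), 0.698, 1.71 and 0.541% (19 DPA), and 0.419, 0.207 and 0.439% (25 DPA). Its 19 DPA mean of 0.983 ± 0.634% rested in large part on replicate 2, and the other 19 DPA libraries still lay above those of 13 and 25 DPA. FtPinG0002072200.01 had 0.302, 0.580 and 0.271% (13 DPA), 0.751, 0.987 and 0.792% (19 DPA), and 0.228, 0.192 and 0.246% (25 DPA). Here the order was 25 DPA lowest, 13 DPA next and 19 DPA highest, with no overlap between any of them. FtPinG0007882300.01 stayed level after 19 DPA, at 0.744 ± 0.130% at 25 DPA, against 0.774 ± 0.0636% at 19 DPA and 0.278 ± 0.155% at 13 DPA. FtPinG0003341300.01 and FtPinG0003302500.01 were highest at 25 DPA, at 0.890 ± 0.116% and 0.740 ± 0.0565%, and each of them had a lower range at 19 DPA and a still lower one at 13 DPA.

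**Figure D2:**
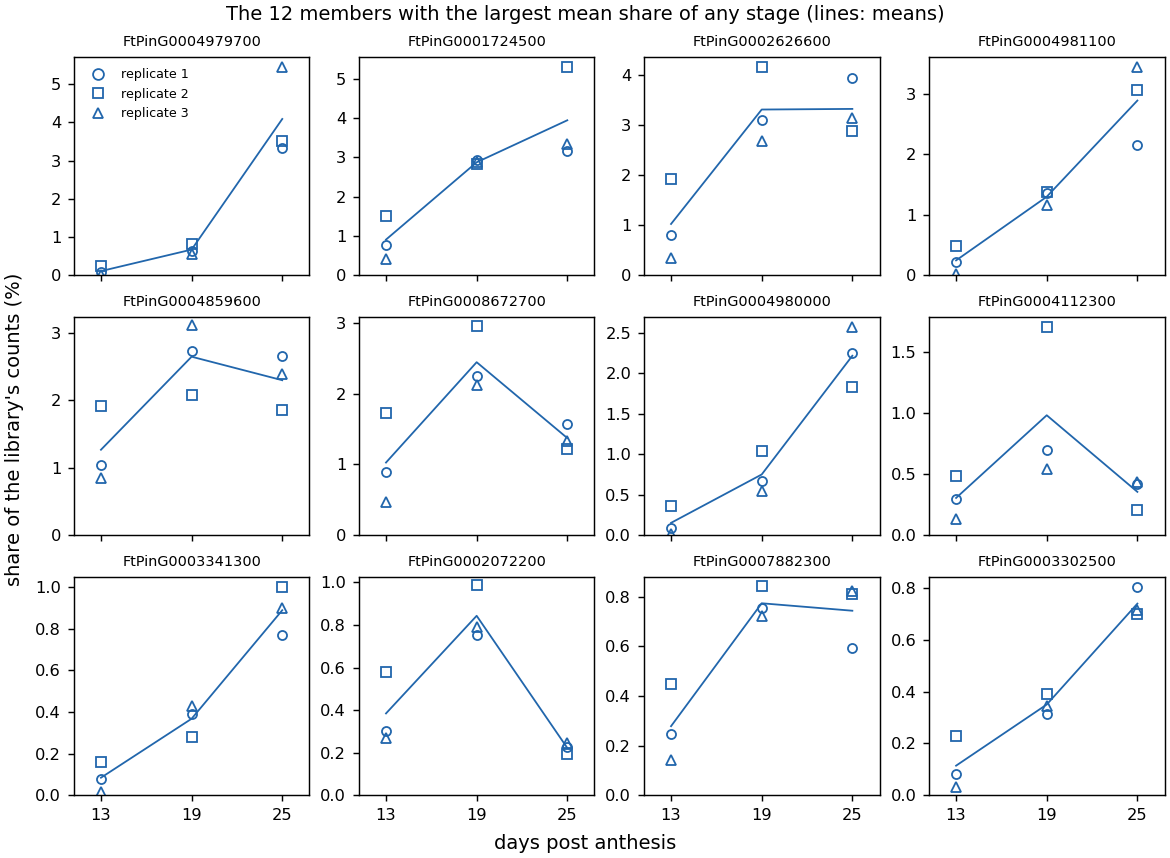
Share of the library's counts (vertical axis, percent, a scale of its own for each gene) at 13, 19 and 25 DPA for the 12 members with the largest mean share of any stage; symbols are the 3 replicates and lines join the stage means. Replicate 2 (squares) was the highest 13 DPA library for each of the 12 genes. The mean was highest at 25 DPA in some, such as FtPinG0004979700.01 at 4.09%, and at 19 DPA in others, such as FtPinG0008672700.01 at 2.45%. For some genes the 19 and 25 DPA means were close, such as FtPinG0002626600.01 at 3.32 and 3.33%.

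A share of counts grows with the length of a gene, so levels were compared between genes per length, as FPKM. At 25 DPA, FtPinG0004979700.01 had 97850 ± 28002 FPKM (SD, n = 3), FtPinG0004981100.01 had 71250 ± 16178 FPKM and FtPinG0004980000.01 had 44396 ± 7362 FPKM. By mean FPKM they took the 3 highest places of all genes at 25 DPA, ahead of every named 11S globulin gene. At 19 DPA the highest member by FPKM was FtPinG0004981100.01 with 32044 ± 3099 FPKM, and at 13 DPA it was FtPinG0008672700.01 with 10475 ± 6536 FPKM. FtPinG0004859600.01, which took the most counts of any member at 13 DPA, was the eighth member by FPKM there, with 5260 ± 2363 FPKM over 2409 bases. FtPinG0008881000.01, of 295 bases, was the sixth member by FPKM at 25 DPA with 18054 ± 11396 FPKM, although its share put it fourteenth. Its 25 DPA libraries ranged over 7794 to 30319 FPKM, so its place among the neighbours in that order is not resolved.

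The members were shorter than other annotated genes. Their median length, recovered from the ratio of counts to FPKM, was 702 bases, with a range of 261 to 2731. The median of all 28229 annotated genes with a count was 1127 bases, and that of 3401 other annotated genes with a mean count of at least 1000 was 1353 bases. Of the 73 members, 29 (39.7%) were under 600 bases, against 19.5% of all annotated genes with a count and 11.7% of the other well-counted genes. The members abundant only at 13 DPA had a median of 631.5 bases and those abundant at all stages 842.5 bases. Choosing by mean FPKM in place of the share gave 76 genes, and 64 genes were in both lists, which is 87.7% of the members and 84.2% of the FPKM list. The 9 members that FPKM did not choose had a median length of 1606 bases, and the 12 genes chosen by FPKM alone had a median of 400 bases.

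The lists turned over more between 13 and 19 DPA than between 19 and 25 DPA. At 13, 19 and 25 DPA, 45, 43 and 43 members were among the 50 most abundant genes. The 19 and 13 DPA lists shared 25 members, which is 58.1% of the 19 DPA list and 55.6% of the 13 DPA list. The 25 and 19 DPA lists shared 33 members, 76.7% of each. The 25 and 13 DPA lists shared 20, or 46.5% of the 25 DPA list and 44.4% of the 13 DPA list, and these same 20 were also in the 19 DPA list. With the lists chosen again without 13 DPA replicate 2, the 19 and 13 DPA lists shared 15 genes and the 25 and 13 DPA lists shared 11. Without 13 DPA replicate 3 these numbers were 27 and 23, and without 13 DPA replicate 1 they were 29 and 23.

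The turnover was read beside the lists of single libraries, made by the same rule with the 50 largest shares of that library. Libraries of 25 DPA shared 40 to 41 genes with each other, and those of 19 DPA shared 34 to 38. Libraries of 13 DPA shared only 18 to 28. 13 DPA replicate 2 shared 33 to 38 genes with the 19 DPA libraries, against 28 and 18 with replicates 1 and 3 of its own stage. 13 DPA replicate 3 shared 10 to 15 genes with the 19 DPA libraries, and replicate 1 shared 18 to 24. Between 25 and 19 DPA, pairs of libraries shared 30 to 37 genes. The numbers shared within 13 DPA thus lay inside the range of 10 to 38 shared between 19 and 13 DPA libraries, while the lists of 25 DPA libraries were more alike than any pair from 25 and 19 DPA.

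By the stages at which they were listed, 20 members were abundant at all 3 stages, 20 at 13 DPA only, 5 at 13 and 19 DPA, 5 at 19 DPA only, 13 at 19 and 25 DPA and 10 at 25 DPA only, and none at 13 and 25 DPA without 19 DPA. The stage with the highest mean share was 13 DPA for 21 members, 19 DPA for 21 and 25 DPA for 31. The 20 members listed at all stages carried the largest part of the members' counts, with 7.32 ± 4.59% at 13 DPA, 20.8 ± 3.06% at 19 DPA and 22.2 ± 0.484% at 25 DPA. Without 13 DPA replicate 2, their sum at 13 DPA was 4.78%. In all of these 20 genes, replicate 2 was the highest and replicate 3 the lowest 13 DPA library.

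**Figure D3:**
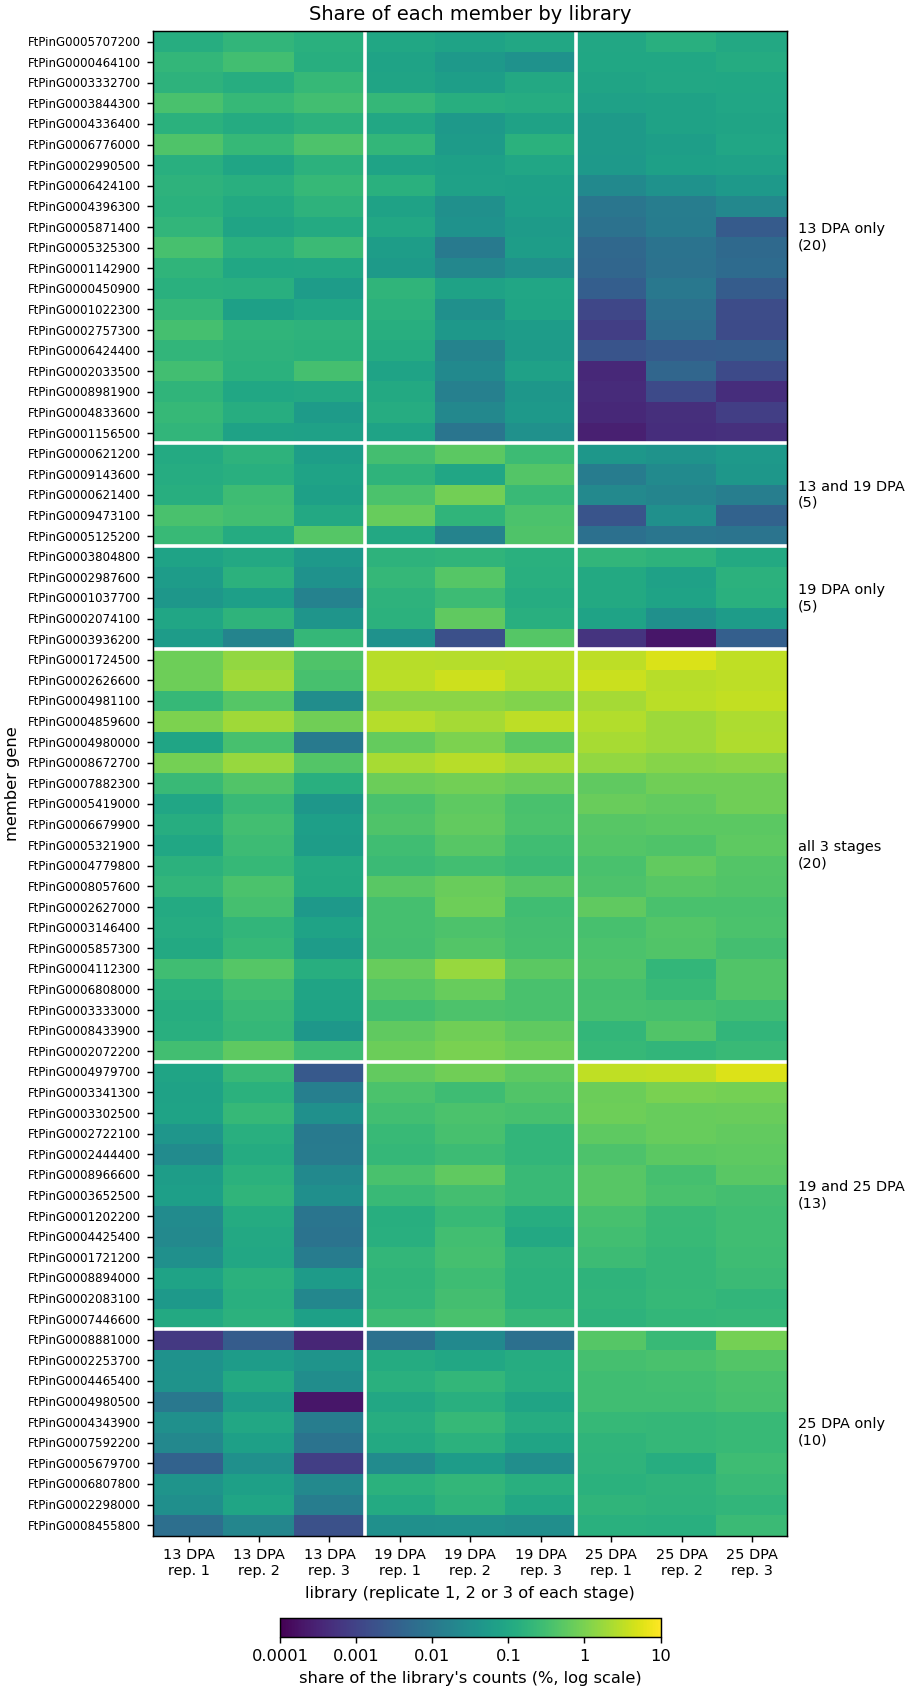
Share of the library's counts (colour, percent on a log scale) for each of the 73 members (rows) in each of the 9 libraries (columns); white lines separate the stages and the groups of members by the stages at which they were among the 50 most abundant genes. The darkest cells are those of members listed at 13 DPA only and of FtPinG0003936200.01 in the 25 DPA libraries, and those of FtPinG0008881000.01, FtPinG0004980500.01 and FtPinG0005679700.01 in 13 DPA libraries.

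The 20 members listed at 13 DPA only summed to 3.59 ± 0.779% at 13 DPA, 1.55 ± 0.693% at 19 DPA and 0.681 ± 0.107% at 25 DPA. Without 13 DPA replicate 2, the sum at 13 DPA was 3.94%, and in 13 of the 20 genes replicate 2 was the lowest library of the stage. The largest of them, FtPinG0006776000.01, had 0.413, 0.222 and 0.408% (13 DPA), 0.202, 0.0567 and 0.156% (19 DPA), and 0.0542, 0.0639 and 0.0919% (25 DPA). Its 13 DPA libraries lay above all others, and its 25 and 19 DPA libraries overlapped. FtPinG0003844300.01, of 398 bases, had 0.359, 0.221 and 0.301% (13 DPA), 0.212, 0.134 and 0.123% (19 DPA), and 0.0712, 0.0751 and 0.0905% (25 DPA), with no overlap between stages. By FPKM it was the third member at 13 DPA, with 7378 ± 1736 FPKM. With the TMM scaling described below, its log2 fold change in 19 DPA vs 13 DPA was -0.08 ± 0.37 (SE). That of FtPinG0006776000.01 was -0.55 ± 0.47, and neither was called.

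Within this group the later course differed from gene to gene. FtPinG0005325300.01 had 0.348, 0.150 and 0.253% (13 DPA), 0.0620, 0.0116 and 0.0615% (19 DPA), and 0.00498, 0.00790 and 0.00517% (25 DPA), and FtPinG0002033500.01 had 0.302, 0.153 and 0.332% (13 DPA), 0.0812, 0.0237 and 0.0732% (19 DPA), and 0.000380, 0.00457 and 0.00131% (25 DPA). Both were lower at each later stage, without overlap. FtPinG0001142900.01 followed the same order at 0.128 ± 0.0516%, 0.0360 ± 0.0170% and 0.00598 ± 0.00163%. FtPinG0001156500.01, FtPinG0004833600.01 and FtPinG0008981900.01 were still within the 13 DPA range in at least 1 of the 19 DPA libraries and were low in every 25 DPA library. Their mean shares at 25 DPA were 0.000409 ± 0.000117%, 0.000566 ± 0.000252% and 0.000741 ± 0.000525%. At that stage FtPinG0001156500.01 ranked 13496 among all genes, against 150 at 19 DPA and 49 at 13 DPA.

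FtPinG0000464100.01 was the member with an assigned function. The study lists it among its auxin genes as a member of the DRM1/ARP family, the dormancy-associated and auxin-repressed proteins, whose transcripts in other plants are known to accumulate in buds and organs that are not growing. Its share was 0.202, 0.307 and 0.138% (13 DPA), 0.0791, 0.0505 and 0.0352% (19 DPA), and 0.0933, 0.0948 and 0.119% (25 DPA). In share, the 13 DPA libraries were highest and the 19 DPA libraries lowest, and the 25 DPA libraries lay between them without overlap. With the TMM scaling described below, its log2 fold change in 25 DPA vs 13 DPA was -0.02 ± 0.49 (SE) and was not called. With total counts as the only scaling it was -1.07, so a difference between 13 and 25 DPA depends on the scaling. Its mean level per length was 3986 ± 1585 FPKM at 13 DPA, 1016 ± 412 FPKM at 19 DPA and 1894 ± 270 FPKM at 25 DPA. It ranked 21, 114 and 73 among all genes at the 3 stages. Of 355 counted genes with a function given in the lists on phytohormones, flavonoids and starch or in the text, it was the only member. The most abundant listed starch synthase gene, FtPinG0009838000.01, reached rank 70 at 13 DPA with 0.0924% of the counts.

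The 5 members listed at 13 and 19 DPA held 0.930 ± 0.116%, 1.72 ± 0.0506% and 0.110 ± 0.0171% at 13, 19 and 25 DPA. Their sums were close between replicates at 19 DPA, but single genes were not. FtPinG0005125200.01, a gene of 2731 bases, had 0.238, 0.117 and 0.480% (13 DPA), 0.102, 0.0174 and 0.422% (19 DPA), and 0.00717, 0.00919 and 0.00843% (25 DPA). Replicate 3 was the highest and replicate 2 the lowest library at both 13 and 19 DPA. FtPinG0009473100.01 had 0.359, 0.304 and 0.103% (13 DPA), 0.698, 0.186 and 0.376% (19 DPA), and 0.00202, 0.0320 and 0.00371% (25 DPA). Its 13 and 19 DPA libraries overlapped, and all of them lay above those of 25 DPA. FtPinG0009143600.01 was highest in replicate 3 at 19 DPA and averaged 0.243 ± 0.193% there, against 0.115 ± 0.0314% at 13 DPA.

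The 5 members listed at 19 DPA only summed to 0.407 ± 0.105% at 13 DPA, 1.11 ± 0.389% at 19 DPA and 0.443 ± 0.0756% at 25 DPA. 4 of them were highest in 19 DPA replicate 2. The other, FtPinG0003936200.01, had 0.0592, 0.0184 and 0.218% (13 DPA), 0.0352, 0.00166 and 0.491% (19 DPA), and 0.000567, 0.000203 and 0.00325% (25 DPA). Its place in the list rested on 19 DPA replicate 3 alone, and its coefficient of variation at 19 DPA, 155%, was the largest of any member listed there. In both 13 and 19 DPA, replicate 3 was its highest library and replicate 2 its lowest. FtPinG0003804800.01, of 2007 bases, had 0.168 ± 0.0163% at 19 DPA and 0.159 ± 0.0460% at 25 DPA, which overlapped.

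The 13 members listed at 19 and 25 DPA held 1.03 ± 0.891% at 13 DPA, 3.85 ± 0.875% at 19 DPA and 9.16 ± 1.28% at 25 DPA. Without 13 DPA replicate 2, their sum at 13 DPA was 0.531%. Replicate 2 was the highest and replicate 3 the lowest 13 DPA library in all 13 genes. FtPinG0004979700.01 accounted for 4.09% of the 9.16% at 25 DPA. FtPinG0008966600.01 held 0.455 ± 0.0988% at 25 DPA, 0.401 ± 0.177% at 19 DPA and 0.0800 ± 0.0685% at 13 DPA. FtPinG0007446600.01 had a lower mean share after 19 DPA, with 0.195 ± 0.0191% at 25 DPA, against 0.285 ± 0.0781% at 19 DPA. With the TMM scaling described below, its log2 fold change in 25 DPA vs 19 DPA was -0.31 ± 0.52 (SE) and was not called. It was 0.12 without 19 DPA replicate 2.

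The 10 members listed at 25 DPA only summed to 0.315 ± 0.254%, 1.04 ± 0.257% and 2.75 ± 0.668% at 13, 19 and 25 DPA. Their sum at 13 DPA was 0.171% without replicate 2. In all 10, replicate 3 was the highest 25 DPA library. FtPinG0008881000.01 had the latest course, with 0.000689, 0.00283 and 0.000345% (13 DPA), 0.00741, 0.0236 and 0.00699% (19 DPA), and 0.473, 0.230 and 0.894% (25 DPA). It ranked 12877 among all genes at 13 DPA, 647 at 19 DPA and 18 at 25 DPA. Its stages did not overlap, but its 25 DPA libraries differed from each other more than those of any other member listed at that stage, with a coefficient of variation of 63.1%. FtPinG0005679700.01 had 0.00366, 0.0321 and 0.000859% (13 DPA), 0.0255, 0.0570 and 0.0292% (19 DPA), and 0.175, 0.132 and 0.281% (25 DPA). FtPinG0008455800.01 had 0.00679, 0.0194 and 0.00171% (13 DPA), 0.0317, 0.0332 and 0.0302% (19 DPA), and 0.150, 0.142 and 0.254% (25 DPA), and its 19 DPA libraries lay close together. FtPinG0002253700.01 had 0.386 ± 0.0575% at 25 DPA, against 0.114 ± 0.0110% at 19 DPA and 0.0438 ± 0.0122% at 13 DPA, and none of these 3 genes had overlapping 25 and 19 DPA libraries.

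Stage differences were then fitted across all 23609 genes that passed a count filter, with counts scaled between libraries by TMM, a factor that sets the typical gene at no change. All 73 members were tested. The TMM factors averaged 1.56 at 13 DPA, 0.884 at 19 DPA and 0.724 at 25 DPA. On this scale the median log2 fold change of the members was 2.22 for 19 DPA vs 13 DPA, 0.16 for 25 DPA vs 19 DPA and 2.06 for 25 DPA vs 13 DPA. Over all genes tested it was -0.03, -0.02 and -0.07. With total counts as the only scaling, which is the scale of the shares, the medians of the members were 1.48, -0.08 and 1.09, and those of all genes -0.85, -0.32 and -1.19. The sign of the fitted change differed between the 2 scalings for 4, 7 and 6 members in the 3 comparisons, and none of these changes was above 0.71 in size with TMM or 1.06 with total counts. Among the genes named here these were FtPinG0005125200.01 in 19 DPA vs 13 DPA, FtPinG0002627000.01, FtPinG0003333000.01, FtPinG0003804800.01, FtPinG0004859600.01 and FtPinG0007882300.01 in 25 DPA vs 19 DPA, and FtPinG0002072200.01 and FtPinG0003332700.01 in 25 DPA vs 13 DPA. These 3 comparisons share libraries and are not independent of each other.

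A gene was called when its FDR (edgeR quasi-likelihood test, Benjamini-Hochberg) was at most 0.05 and its log2 fold change at least 1 in size. In 19 DPA vs 13 DPA, 9 of the 73 members (12.3%) were called, against 8.57% of all genes tested. All 9 were higher at 19 DPA, against 4.11% of all genes higher and 4.46% lower. None was lower. DESeq2 called 46 higher and 3 lower, with 13.7% of all genes called. With the replicate number as a block, 27 members were called, all higher at 19 DPA, against 11.6% of all genes. Without 13 DPA replicate 2, 47 members were called, against 12.6% of all genes. The count fell to 0 without 13 DPA replicate 1, 13 DPA replicate 3, 19 DPA replicate 1 or 19 DPA replicate 2, with 1.67 to 4.25% of all genes called. It fell to 2 to 4 without 19 DPA replicate 3 or any 1 of the 25 DPA libraries, with 4.86 to 7.05% of all genes called, while the median of the members stayed between 1.77 and 3.07.

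In 25 DPA vs 19 DPA, 22 members (30.1%) were called, against 28.8% of all genes. Of these, 3 were higher at 25 DPA and 19 were lower, against 9.27% and 19.5% of all genes. With only the 6 libraries of that pair in the fit, 34 members were called, 15 higher and 19 lower, against 28.9% of all genes. In 25 DPA vs 13 DPA, 57 members (78.1%) were called, against 42.2% of all genes, with 42 higher and 15 lower, against 16.6% and 25.6%. The rule chose the members on these same libraries, so nothing is read from these counts beyond the values.

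The groups were formed from the shares of these libraries, so the direction of the fitted changes in each group follows from the rule, and they are given as a description. In 19 DPA vs 13 DPA, the 20 members listed at all stages ranged over 1.5 to 3.09, and all 20 were positive. The 20 members listed at 13 DPA only ranged over -1.72 to 0.71 with a median of -0.43, and 17 of them were negative, or all 20 with total counts. That group had a median of -2.40 in 25 DPA vs 19 DPA. The 5 members listed at 13 and 19 DPA had a median of -4.04 there. The members listed at all stages had a median of 0.23 in the same comparison, with 14 positive and 6 negative, or 10 of each with total counts.

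The largest positive changes in 19 DPA vs 13 DPA were those of FtPinG0008881000.01 (4.08 ± 1.11, log2 ± SE), FtPinG0004979700.01 (3.29 ± 1.30), FtPinG0004981100.01 (3.09 ± 1.0), FtPinG0008433900.01 (3.08 ± 0.74) and FtPinG0008966600.01 (3.08 ± 0.84). Of these, only FtPinG0008881000.01 and FtPinG0008433900.01 were called. The 5 most negative were those of FtPinG0005325300.01 (-1.72 ± 0.53), FtPinG0002033500.01 (-1.35 ± 0.74), FtPinG0000464100.01 (-1.22 ± 0.50), FtPinG0001142900.01 (-1.05 ± 0.39) and FtPinG0001156500.01 (-0.79 ± 0.66), and none of these 5 was called. The standard errors of most positive members were above 0.5, so their order is not resolved. The changes of FtPinG0008881000.01 and FtPinG0004979700.01 were 5.66 ± 1.11 and 4.86 ± 1.39 without 13 DPA replicate 2. They were smaller without 13 DPA replicate 3, at 3.60 ± 1.12 and 2.72 ± 0.75. Without 19 DPA replicate 2 they were 3.00 ± 1.03 and 2.96 ± 1.41.

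In 25 DPA vs 19 DPA, the largest positive changes were those of FtPinG0008881000.01 (5.62 ± 1.19), FtPinG0004979700.01 (2.88 ± 1.27), FtPinG0008455800.01 (2.82 ± 0.84), FtPinG0005679700.01 (2.64 ± 1.20) and FtPinG0002253700.01 (2.07 ± 0.44). Of these, FtPinG0008881000.01, FtPinG0008455800.01 and FtPinG0002253700.01 were the 3 members called higher. FtPinG0008455800.01 was not called without any 1 of the 19 DPA libraries or without 25 DPA replicate 1 or 25 DPA replicate 3, with changes of 2.40 to 3.01. The most negative changes were those of FtPinG0003936200.01 (-6.50 ± 2.02), FtPinG0004833600.01 (-6.42 ± 0.86), FtPinG0001156500.01 (-6.24 ± 0.83), FtPinG0008981900.01 (-5.89 ± 0.78) and FtPinG0009473100.01 (-4.79 ± 1.13), and all 5 were called lower. The change of FtPinG0003936200.01 rested on 19 DPA replicate 3. Without that library it was -3.31 ± 1.45, was not called and took place 11 among the members, and it was also not called without 25 DPA replicate 1 or 25 DPA replicate 2, at -6.11 ± 2.49 and -5.98 ± 2.29. That of FtPinG0009473100.01 was -6.75 ± 1.03 without 25 DPA replicate 2. Over the whole interval, FtPinG0008881000.01 had 9.70 ± 1.43 and FtPinG0004979700.01 had 6.17 ± 1.48.

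**Figure D4:**
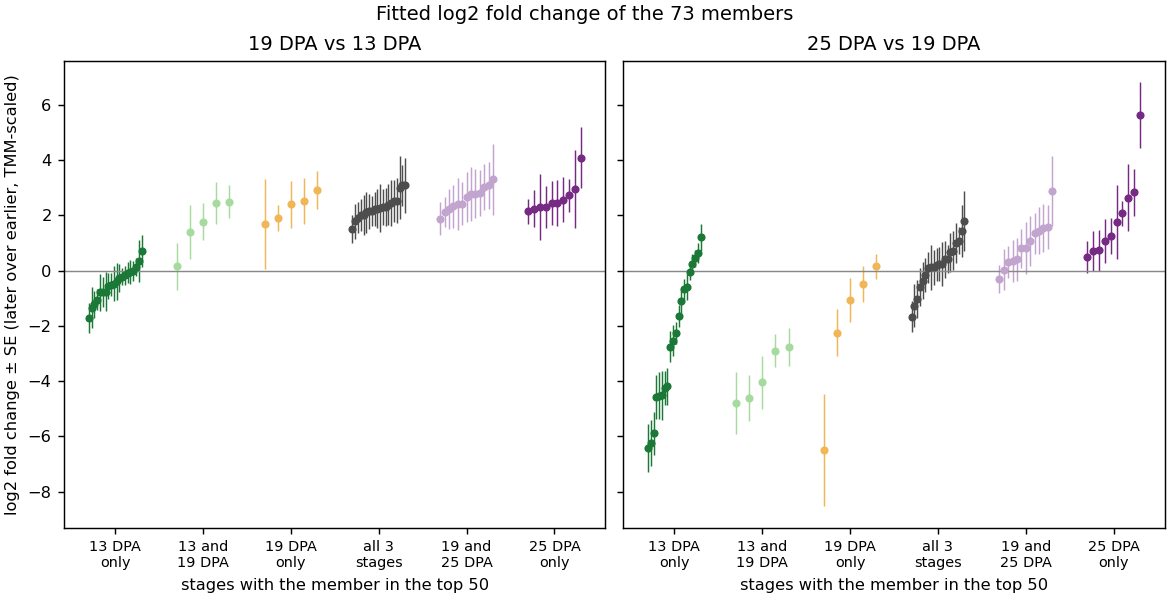
Fitted log2 fold change with its standard error (vertical axis, later stage over earlier stage, TMM-scaled) of the 73 members in 19 DPA vs 13 DPA (left) and 25 DPA vs 19 DPA (right), grouped by the stages at which a member was among the 50 most abundant genes and ordered by size within a group. In 19 DPA vs 13 DPA, every member of the groups other than 13 DPA only had a positive change, with FtPinG0005125200.01 turning negative when scaled by total counts, and in 25 DPA vs 19 DPA, all 5 members listed at 13 and 19 DPA were below -2.

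Some members had close ids. The ids of this annotation are numbered mostly in steps of 100 or 200, and a run was taken as members whose successive ids differed by at most 1000. The sources used here do not say that the numbers follow position in the genome. The rule gave 6 runs with 14 members (19.2%), 5 of them pairs and 1 a run of 4. Summed over the members, 478 ids lay within 1000 of a member's id, and 18 of them (3.77%) were members, against 0.229% of all 31848 annotated ids. With a distance of 500 the runs held 13 members and with 2000 they held 16. No member lay within 2000 of the id of any of the 5 named 11S globulin genes. The members in runs held 20.1 ± 4.72% of the members' counts at 13 DPA, 28.9 ± 3.30% at 19 DPA and 40.4 ± 2.87% at 25 DPA. Where genes of a run are near-identical copies, the split of reads between them is uncertain, because how reads with several matches were counted is not given.

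The run of 4, FtPinG0004979700.01, FtPinG0004980000.01, FtPinG0004980500.01 and FtPinG0004981100.01, held 3.18 ± 2.71% of the members' counts at 13 DPA, 9.37 ± 0.584% at 19 DPA and 26.7 ± 3.75% at 25 DPA. At 25 DPA this was the largest part of any run, while at 13 and 19 DPA the pair FtPinG0002626600.01 and FtPinG0002627000.01 held more, with 7.83 ± 3.51% and 12.4 ± 1.68%. The summed share of the run of 4 in replicates 1, 2 and 3 was 0.402, 1.15 and 0.0421% (13 DPA), 2.77, 3.38 and 2.34% (19 DPA), and 8.02, 8.70 and 11.8% (25 DPA). The means were 0.531 ± 0.565%, 2.83 ± 0.521% and 9.50 ± 2.01%, and the mean at 13 DPA was 0.222% without replicate 2. The 4 genes were 418, 499, 412 and 405 bases long. All 4 were lowest at 13 DPA and highest at 25 DPA, and in each of them 13 DPA replicate 3 was the lowest library of all. They differed in level, with FtPinG0004980500.01 at 7565 ± 901 FPKM at 25 DPA, against 44396 to 97850 FPKM for the other genes of the run. FtPinG0004980800.01, an id inside this run that was no member and is named after its values were seen, held 0.00143, 0.00115 and 0.000830% on average at 13, 19 and 25 DPA.

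The pair FtPinG0000621200.01 and FtPinG0000621400.01, of 414 and 431 bases, was highest at 19 DPA and lowest at 25 DPA. FtPinG0000621200.01 had 0.115, 0.172 and 0.0639% (13 DPA), 0.318, 0.539 and 0.273% (19 DPA), and 0.0453, 0.0367 and 0.0477% (25 DPA), and FtPinG0000621400.01 had 0.138, 0.283 and 0.0708% (13 DPA), 0.388, 0.870 and 0.248% (19 DPA), and 0.0229, 0.0186 and 0.0139% (25 DPA). Their replicates were ordered alike at 13 and 19 DPA, with replicate 2 highest and replicate 3 lowest. At 13 and 19 DPA FtPinG0000621400.01 had the higher mean level per length, and at 25 DPA FtPinG0000621200.01 did, with 1045 FPKM against 428 FPKM for FtPinG0000621400.01. Both were called lower in 25 DPA vs 19 DPA, at -2.89 ± 0.61 and -4.60 ± 0.84.

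FtPinG0002627000.01, which formed a pair with FtPinG0002626600.01, had 0.113, 0.339 and 0.0489% (13 DPA), 0.341, 0.776 and 0.293% (19 DPA), and 0.613, 0.362 and 0.366% (25 DPA). Both genes were lowest at 13 DPA. The stage with the highest mean was 25 DPA for FtPinG0002626600.01 and 19 DPA for FtPinG0002627000.01, and the 25 and 19 DPA libraries overlapped in both. The pair FtPinG0006807800.01 and FtPinG0006808000.01, of 261 and 517 bases, was lowest at 13 DPA in both genes. The means of FtPinG0006808000.01 were 0.178 ± 0.108% at 13 DPA, 0.515 ± 0.164% at 19 DPA and 0.335 ± 0.102% at 25 DPA. Those of FtPinG0006807800.01 were 0.0434 ± 0.0242%, 0.168 ± 0.0327% and 0.195 ± 0.0478% in the same order, and the 25 and 19 DPA libraries overlapped in both.

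FtPinG0003332700.01 and FtPinG0003333000.01, of 1804 and 1806 bases, ran in opposite directions in share from 13 to 19 DPA. FtPinG0003332700.01 had 0.169, 0.131 and 0.224% (13 DPA), 0.0845, 0.0639 and 0.106% (19 DPA), and 0.0813, 0.10 and 0.0971% (25 DPA), and its 13 DPA libraries lay above all others. FtPinG0003333000.01 had 0.128, 0.248 and 0.0793% (13 DPA), 0.312, 0.408 and 0.366% (19 DPA), and 0.349, 0.332 and 0.293% (25 DPA), and its 13 DPA libraries lay below all others. The sum of the pair was 0.326 ± 0.0463%, 0.447 ± 0.0437% and 0.417 ± 0.0240% at 13, 19 and 25 DPA. On the TMM scale the fitted change of FtPinG0003332700.01 in 19 DPA vs 13 DPA was -0.22 ± 0.31 and that of FtPinG0003333000.01 was 2.0 ± 0.58, and neither was called.

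FtPinG0006424100.01 and FtPinG0006424400.01, of 707 and 749 bases, were both listed at 13 DPA only and had nearly the same share there, 0.179 ± 0.0442% and 0.176 ± 0.0217%. At 25 DPA they had parted, with 0.0367 ± 0.0135% for FtPinG0006424100.01 and 0.00253 ± 0.000444% for FtPinG0006424400.01. FtPinG0006424400.01 had the smallest replicate spread of any member listed at 13 DPA, a coefficient of variation of 12.4%. FtPinG0006424400.01 was called lower in 25 DPA vs 19 DPA at -4.24 ± 0.61, while FtPinG0006424100.01 had -1.09 ± 0.43 and was not called.

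**Figure D5:**
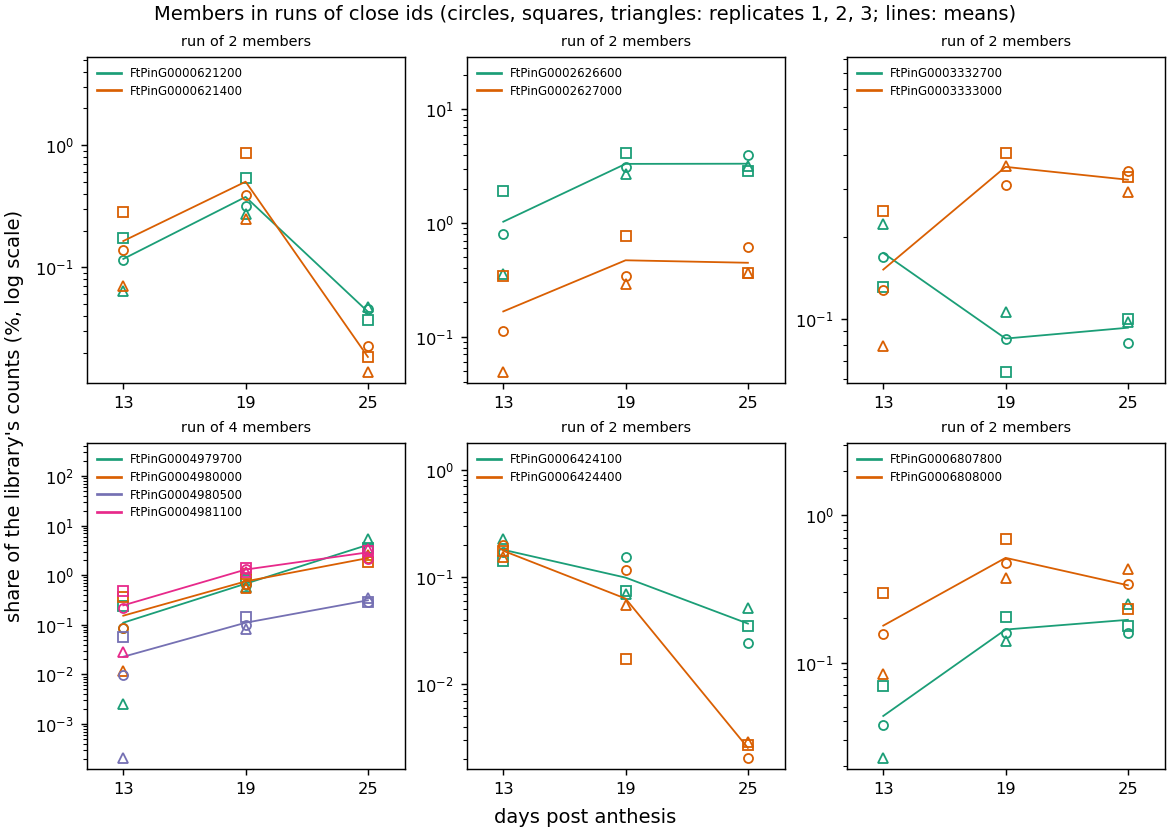
Share of the library's counts (vertical axis, percent on a log scale, a scale of its own for each panel) at 13, 19 and 25 DPA for the 14 members in 6 runs of close ids; each panel is 1 run, colours are genes, symbols are replicates 1, 2 and 3 and lines join the stage means. All genes of the run of 4 were highest at 25 DPA, and the shares of the pair FtPinG0003332700.01 and FtPinG0003333000.01 moved in opposite directions from 13 to 19 DPA.

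The replicate spread of the members narrowed with stage. The median coefficient of variation among members listed at 13, 19 or 25 DPA was 46.3%, 27.4% or 16.6%. For other genes with a mean count of at least 100, it was 24.5%, 22.05% or 17.4%. The widest member at 13 DPA was FtPinG0004980000.01 at 120%, and the narrowest at 25 DPA was FtPinG0004343900.01 at 3.89%, with 0.224 ± 0.00874%.

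Membership near rank 50 rested on differences smaller than the replicate spread. At 13 DPA, FtPinG0001156500.01 and FtPinG0009143600.01 were just inside with 0.117 ± 0.0705% and 0.115 ± 0.0314%. FtPinG0003302500.01 and FtPinG0007446600.01, just outside with 0.114 ± 0.102% and 0.114 ± 0.0454%, were members through other stages. At 19 DPA, FtPinG0001202200.01 and FtPinG0003804800.01 were just inside with 0.168 ± 0.0575% and 0.168 ± 0.0163%, and FtPinG0006807800.01 and FtPinG0004465400.01 were just outside with 0.168 ± 0.0327% and 0.162 ± 0.0392%. At 25 DPA, FtPinG0002298000.01 and FtPinG0008455800.01 were just inside with 0.184 ± 0.0111% and 0.182 ± 0.0624%. FtPinG0000702400.01 and FtPinG0002981400.01, just outside with 0.177 ± 0.0351% and 0.160 ± 0.0471%, were not members.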

How the data were processed

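Paired-end RNA-seq covered 9 seed libraries, 3 at each stage. The deposited counts are whole numbers per gene. The authors had trimmed adaptors and low-quality bases and aligned the reads with TopHat2 2.0.12 and Bowtie2 2.0.6 to the Pinku1 genome. The authors derived the deposited FPKM values from counts, gene lengths and library totals, without any further scaling. How reads were counted, with or without strand and with reads that matched several places, is not given in the sources used here, so overlapping genes and near-identical copies can share reads. No genome or sequence was used.

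Stage differences were fitted to the counts with edgeR 4.0.16 under R 4.3.3 (TMM, filterByExpr, robust quasi-likelihood fit over all 9 libraries). The Benjamini-Hochberg adjustment covered the 23609 genes tested, and a call needed an FDR no higher than 0.05 with a log2 fold change no smaller than 1 in size. The study's methods leave the fold limit incomplete. The p-values set a stage difference against the spread between these libraries. A standard error was the log2 fold change divided by the square root of F. The fit was tested on simulated data. Python 3.11.15 and pandas 2.3.3 were used for shares, lists and figures.

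Members and lists were chosen with earlier results of these data known. The genes named are the 10 members with the largest share of each stage, the 5 largest changes in each direction between successive stages, all members in runs, the annotated member, the genes next to rank 50 and those with the smallest and largest spread. Deviations from the stage means in libraries with the same replicate number had r of 0.331, 0.488 and 0.577 across genes between 19 and 13 DPA, and different numbers had r of -0.473 to -0.0964. The same number was therefore taken to pair these libraries, and the blocked count is given beside that comparison. The fold changes and standard errors of single genes are those of the fit without the block, so they do not use this pairing. With the block, FtPinG0005125200.01 had -0.30 in 19 DPA vs 13 DPA, against 0.16 without it. Alternatives were DESeq2 1.42.0, limma 3.58.1 on log2 FPKM, other scalings, filters, list sizes and run distances, the block, and each library left out.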

Additional observations from a re-analysis of the deposited data

How the results depend on the processing

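The limits are the spread at 13 DPA and the arbitrary rank of 50. With the 25 or 100 largest genes of each stage, the rule gave 39 or 153 members, 7 or 35 of them listed at all 3 stages and 28 or 122 of them also chosen by FPKM, against 73, 20 and 64. Leaving out each library in turn gave 69 to 83 members, of which 66 to 73 were among the 73, and without 13 DPA replicate 2 11 members were listed at all 3 stages. Over these alternatives 11 to 23 members were listed at all stages, and 57 to 68 were also chosen by FPKM. The summed share at 13, 19 and 25 DPA was 10.7 to 16.1%, 27.8 to 31.7% and 34.0 to 36.2%. The lists, chosen again after the data had been seen, shared 15 to 29 genes between 19 and 13 DPA, 31 to 36 between 25 and 19 DPA and 11 to 23 between 25 and 13 DPA. With the 5 named 11S globulin genes taken out of the library totals, the members held 37.3% at 19 DPA and 42.2% at 25 DPA.

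The number of members called in 19 DPA vs 13 DPA, 9 in the reported fit, was 49 with DESeq2 (13.7% of all genes called), 42 with total counts (33.6%), 1 with only the 6 libraries of the pair (5.63%), 27 with the replicate block (11.6%), and, with limma on log2 FPKM, 57 with a pseudocount of 1 (28.2%), 55 with 0.1 (35.03%) and 48 unfiltered (19.4%). It was 0 to 47 with each library left out (1.67 to 12.6%). In 25 DPA vs 19 DPA it was 22, against 34 with only the 6 libraries of the pair (28.9%) and 19 to 28 with a library left out (21.6 to 29.1%). In 25 DPA vs 13 DPA it was 57, and 39 to 59 with a library left out (36.9 to 43.1%). The replicate block gave 21 and 58 members in these 2 comparisons (30.4 and 43.7%). Deviations of libraries with the same number had low r in them, 0.0219 to 0.190 between 25 and 19 DPA and -0.0268 to 0.134 between 25 and 13 DPA. These values do not show whether such libraries came from the same plant. Of 2679 alternative fold changes of the 47 named members, 2473 moved by less than the spread between replicates and 206 by more, and no called change turned its direction. The cause of these differences was not tested. The fits with fewer libraries estimated the spread from fewer samples.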
